A study of Mus musculus with 12 samples.

Results

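The interferon-induced genes described here are Ifitm2, Ifitm3, Irf7, Isg15, Ifit3 and Mx1, 6 mouse genes chosen by name, and 5 of them had a row among the 15223 genes of the deposited tables. Isg15, a ubiquitin-like protein that is attached to other proteins in interferon-treated cells, is not analysed here. The RNA came from c-Kit(+) cells isolated from hearts of 8-week C57BL/6 mice carrying c-KitCreERT2/mTeG, a Cre recombinase driven by c-Kit together with an eGFP reporter, and the label was switched on in every group with 14 days of tamoxifen at 0.5 mg daily. The groups were c-Kit(+) cells taken 1 day before myocardial infarction (pre-MI, n = 3), 1 day after it (day 1, n = 2), and 12 days after it in mice given Sfrp2 (n = 3) or vehicle (n = 3) on day 2. Sfrp2 is a secreted protein that binds Wnt ligands. A further library came from cardiomyocytes of sham-operated mice (n = 1) and entered no comparison. The day 1 labels carry the word vehicle although the stated treatment day is later, and column names in the tables give day 14 where the labels give day 12. The labels were followed.

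Interferons are secreted when a cell detects viral or damaged nucleic acid. Type I interferons bind a receptor that signals through JAK kinases to transcription factors, which bind a DNA element called the ISRE and switch on many genes, among them the genes described here. Irf7 amplifies the response by driving interferon genes, Ifit3 and Mx1 act inside the cell against viral RNA and viral ribonucleoproteins, and Ifitm2 and Ifitm3 are small membrane proteins that hinder viral fusion. In mouse tissues Ifitm2 and Ifitm3 are also made without infection, endothelial cells included. In C57BL/6 mice the Mx1 allele carries a deletion and makes no functional protein, and RefSeq annotates it as a pseudogene.

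Ifitm2 (GRCm38, chromosome 7, 140954837 to 140955987, minus strand), Ifitm3 (chromosome 7, 141009586 to 141010770, minus strand) and Irf7 (chromosome 7, 141262706 to 141266481, minus strand) lie close together on chromosome 7. Ifit3 lies on chromosome 19 (34583531 to 34588731, plus strand) and Mx1 on chromosome 16 (97447035 to 97462907, minus strand). Promoters are shown because the ISRE is the element these genes are known to share. RefSeq promoters, each 300 bases on GRCm38.p6 from 250 before to 50 after the transcript start and written 5′ to 3′ on the gene's strand, were found for 4 of the 5 genes, and the Mx1 promoter is not used here. The windows are chr7:140955912-140956211 (minus) for Ifitm2, chr7:141010695-141010994 (minus) for Ifitm3, chr7:141266375-141266674 (minus) for Irf7 and chr19:34583279-34583578 (plus) for Ifit3. Capitals mark matches, on either strand, to the ISRE core, which is GAAA, any 2 bases (NN) and GAAA again.
Ifitm2: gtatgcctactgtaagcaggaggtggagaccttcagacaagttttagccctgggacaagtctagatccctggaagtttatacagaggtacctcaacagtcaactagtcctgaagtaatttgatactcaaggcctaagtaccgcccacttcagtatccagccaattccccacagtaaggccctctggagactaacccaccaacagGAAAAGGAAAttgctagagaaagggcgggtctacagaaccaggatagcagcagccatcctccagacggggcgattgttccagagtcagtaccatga
Ifitm3: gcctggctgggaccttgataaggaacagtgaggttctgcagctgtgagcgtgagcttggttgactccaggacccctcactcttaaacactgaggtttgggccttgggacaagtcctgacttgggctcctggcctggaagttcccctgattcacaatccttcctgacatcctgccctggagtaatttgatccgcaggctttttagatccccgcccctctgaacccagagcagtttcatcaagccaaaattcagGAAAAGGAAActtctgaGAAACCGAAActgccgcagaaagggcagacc
Irf7: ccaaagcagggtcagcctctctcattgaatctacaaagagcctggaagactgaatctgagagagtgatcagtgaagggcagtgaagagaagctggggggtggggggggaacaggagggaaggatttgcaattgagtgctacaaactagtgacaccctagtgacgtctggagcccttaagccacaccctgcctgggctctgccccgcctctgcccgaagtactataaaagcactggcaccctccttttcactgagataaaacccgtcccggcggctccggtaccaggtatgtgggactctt
Ifit3: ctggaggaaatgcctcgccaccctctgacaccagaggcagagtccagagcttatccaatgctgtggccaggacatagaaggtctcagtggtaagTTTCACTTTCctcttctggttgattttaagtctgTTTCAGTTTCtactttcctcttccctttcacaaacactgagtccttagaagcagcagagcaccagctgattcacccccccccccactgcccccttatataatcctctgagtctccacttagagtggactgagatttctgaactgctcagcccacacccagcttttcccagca

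With the start base counted as 1 and no base numbered 0, Ifitm2 had 1 match at -46 to -37. Ifitm3 had 2 matches, at 3 to 12 and at 20 to 29. The Ifitm2 match and the first Ifitm3 match have the same letters, GAAAAGGAAA. Ifit3 had 2 matches on the opposite strand, at -156 to -147 and -122 to -113. Irf7 had none in this window. The core occurs in 3.44% of 32851 RefSeq promoters of the same length and in 37.5% of the 64 promoters matched to other interferon-induced genes. A match is a description of letters and was not tested for binding.

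Values in the tables are counts that were scaled by each library's size factor, here called normalized values. Reads recovered from them totalled 3462396 to 3570993 in pre-MI libraries, 1793826 and 2085161 on day 1, 1159703 to 2683841 in day 12 Sfrp2 and 200641 to 2349774 in day 12 vehicle, over the listed genes. Mitochondrial genes took 94.5% to 97.2% of pre-MI reads, so nuclear coding genes had only 88915 to 173357 reads there. Day 12 vehicle replicate 3 stood apart with 3.87% mitochondrial reads, close to the 2.97% of the cardiomyocyte library, against 59.7% to 88.5% in the other libraries taken after MI. Olfactory, vomeronasal and taste receptor genes, which heart cells should not use, had 5 to 10 reads per pre-MI library over 99 genes but 146 and 307 on day 1, 270 to 757 in day 12 Sfrp2 and 70 to 672 in day 12 vehicle. Nothing in the labels ties libraries to separate animals. The p-values therefore rest on spread among libraries that may in part be technical. Reads carry no molecular identifiers, so a limit set by a count of 0 covers counting error only, while the 95% intervals of differences come from the spread among libraries.

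Among the 5 genes, Ifitm3 had the highest level per exon length in every group. Its normalized value per exon kb averaged 124 ± 7.43 in pre-MI libraries (SD, n = 3), 168 ± 25.7 on day 1 (SD, n = 2), 37.5 ± 13.5 in day 12 Sfrp2 (SD, n = 3) and 73.6 ± 80.2 in day 12 vehicle (SD, n = 3). Ifitm2 followed with 43.3 ± 17.4, 26.5 ± 7.77, 9.56 ± 1.76 and 17.0 ± 12.8 per exon kb in the same groups. Irf7, Ifit3 and Mx1 averaged below 4 per exon kb in every group. Ifitm3 was above Ifitm2 in every library before MI, on day 1 and in day 12 Sfrp2, while the ranges per exon kb of Irf7 and Ifit3 overlapped in pre-MI and day 12 Sfrp2 libraries.

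**Figure D1:**
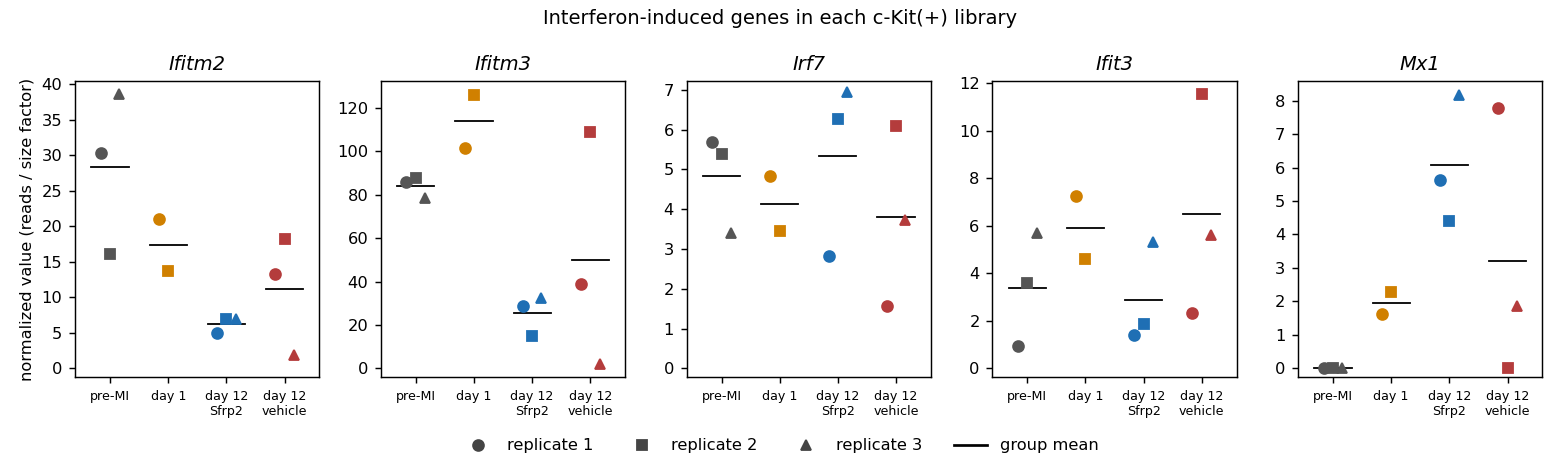
Normalized value (reads divided by the library's size factor, vertical axes from 0) of each gene in the 11 c-Kit(+) libraries, by group, with marker shapes for replicates and a line at the group mean. Ifitm2 and Ifitm3 lie lower in all day 12 Sfrp2 libraries than in any pre-MI library, Mx1 is at 0 in all pre-MI libraries, and Irf7 and Ifit3 overlap between groups.

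Ifitm3 and Ifitm2 fell in day 12 Sfrp2 cells relative to pre-MI cells. Ifitm3 had normalized values of 28.9, 15.1 and 32.3 in the day 12 Sfrp2 libraries, against 86.1, 87.8 and 78.4 in the pre-MI libraries. These came from 24 to 79 reads in day 12 Sfrp2 and 49 to 91 reads in pre-MI libraries. All day 12 Sfrp2 libraries were below all pre-MI libraries, as for 11.5% of all genes. The means were 25.4 ± 9.12 and 84.1 ± 5.04 (SD, n = 3 each), 3.31-fold lower in day 12 Sfrp2 than in pre-MI libraries. The limma log2 difference of (value + 1) was -1.75 (SE 0.326, 95% interval -2.50 to -1.01, adjusted p = 0.00219 by limma over all genes).

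Ifitm2 had normalized values of 4.93, 6.91 and 6.95 in the day 12 Sfrp2 libraries, against 30.3, 16.1 and 38.6 in the pre-MI libraries. The groups again did not overlap, although pre-MI replicate 2 rested on 9 reads. The means were 6.26 ± 1.15 and 28.3 ± 11.4 (SD, n = 3 each), 4.53-fold lower in day 12 Sfrp2 than in pre-MI libraries. The limma log2 difference was -1.94 (SE 0.381, 95% interval -2.82 to -1.07, adjusted p = 0.00284). Fewer cells that make these RNAs and less of the RNA per cell cannot be told apart in such bulk samples.

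Across the whole table, 8.82% of genes fell and 48.8% rose in day 12 Sfrp2 relative to pre-MI, and of the 5 interferon-induced genes 2 fell and 1, Mx1, rose. The median log2 difference over all genes was 1.27, and -0.49 over the 3925 genes with a mean of at least 10. That class holds Ifitm2 and Ifitm3 but not the other members. When it was fitted alone, 30.8% of it fell and 11.8% rose. Scaling to nuclear protein-coding genes moved the share of calls over all genes that were higher to 75.6%, against 84.7% as deposited. It left Ifitm3 at -2.26 and Ifitm2 at -2.43, relative to a median of -0.99 over genes averaging at least 10. In a fit of all 11 c-Kit(+) libraries, whose spread includes the day 12 vehicle libraries, Ifitm3 kept its log2 difference and missed the threshold with a limma adjusted p of 0.107. In the authors' deposited table Ifitm2 had a log2 fold change of -2.19 with an adjusted p of 0.0152, and Ifitm3 had -1.72 with an adjusted p of 0.0669.

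**Figure D2:**
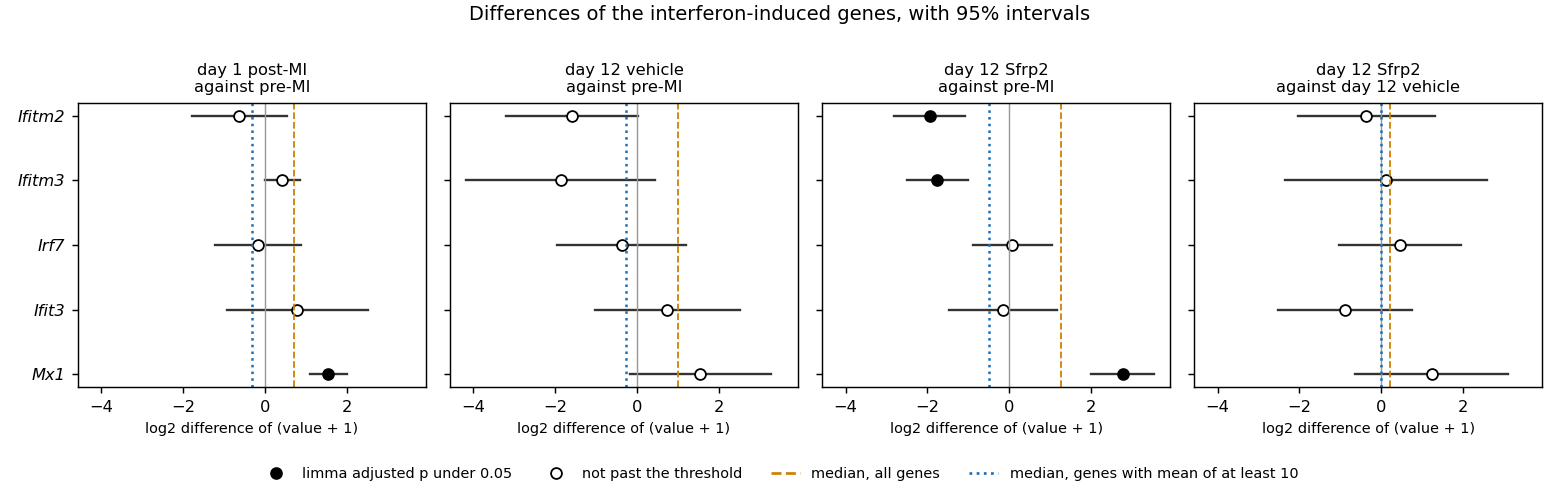
Limma log2 difference of (value + 1) with its 95% interval for each gene in 4 comparisons, filled where the adjusted p is under 0.05, with dashed and dotted lines at the medians of all genes and of those averaging at least 10. Ifitm2 at -1.94 and Ifitm3 at -1.75 in day 12 Sfrp2 lie on the opposite side of 0 from the median of all genes, 1.27. They lie on the same side as the median of genes averaging at least 10, -0.49.

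On day 1 neither Ifitm3 nor Ifitm2 passed the threshold. Ifitm3 had normalized values of 102 and 126 on day 1, against 86.1, 87.8 and 78.4 before MI, so that both day 1 libraries exceeded every pre-MI library. Such a pattern, all libraries higher, was shown by 39.6% of all genes. The limma log2 difference of 0.43 (SE 0.165, 95% interval -0.0016 to 0.86, adjusted p = 0.139) did not pass the threshold, and it was 0.01 (adjusted p = 0.997) when libraries were scaled to nuclear protein-coding genes. On that scale Ifitm3 had 502.8 ± 92.0 reads per 1000000 nuclear coding reads on day 1 (SD, n = 2) and 499.7 ± 67.7 before MI (SD, n = 3).

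Ifitm2 had normalized values of 21.0 and 13.8 on day 1, against 30.3, 16.1 and 38.6 before MI, with overlapping groups. Its limma log2 difference was -0.62 (SE 0.442, 95% interval -1.77 to 0.53, adjusted p = 0.359). On day 1, 21.3% of all genes rose and 2.65% fell relative to pre-MI, and Mx1 was the only one of the 5 genes past the threshold.

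In day 12 vehicle libraries both genes spread widely. Ifitm3 had normalized values of 38.9, 109 and 1.87 in replicates 1, 2 and 3, from 50, 179 and 1 reads. Replicate 2 was above, and replicates 1 and 3 below, every pre-MI library. Ifitm2 had 13.2, 18.3 and 1.87 in the same order. The limma log2 differences from pre-MI were -1.87 for Ifitm3 (SE 1.05, 95% interval -4.19 to 0.45, adjusted p = 0.213) and -1.58 for Ifitm2 (SE 0.733, 95% interval -3.21 to 0.04, adjusted p = 0.153). Without replicate 3, the library with few mitochondrial reads, Ifitm3 differed by -0.36 and Ifitm2 by -0.74, and neither passed the threshold.

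None of the 5 genes passed the threshold between day 12 vehicle and pre-MI, a comparison in which limma called 0% of all genes (5150 of 15223 at an unadjusted p under 0.05, 1907 called by edgeR and 861 by DESeq2). The same held between day 12 Sfrp2 and day 12 vehicle (0% called by limma, 219 genes at an unadjusted p under 0.05, 0 called by edgeR and by DESeq2). There Ifitm3 differed by 0.11 on the log2 scale with a 95% interval of -2.35 to 2.58, and Ifitm2 by -0.36 with an interval of -2.04 to 1.32. The Ifitm3 difference turns to -1.40 without vehicle replicate 3. Between day 12 vehicle and day 1, limma called 0% of genes (171 at an unadjusted p under 0.05, 0 by edgeR and 1 by DESeq2) and Ifitm3 differed by -2.30 (95% interval -4.93 to 0.34). The pre-MI libraries are shared by the 3 comparisons with pre-MI.

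Ifitm3 reads exceeded Ifitm2 reads in every c-Kit(+) library but vehicle replicate 3, which had 1 read of each. The ratio was 2.18 to 5.86 in day 12 Sfrp2 libraries, 4.85 and 9.17 on day 1, and 2.03 to 5.44 in pre-MI libraries. These ranges overlap between day 12 Sfrp2 and pre-MI. The transcripts share few 50-base windows, 3.3% of those of Ifitm2 and 3.18% of those of Ifitm3. In GENCODE M21 the gene Gm45717 overlaps 40.9% of the exon bases of Ifitm2 on the same strand, so reads there may have been left out of Ifitm2 where the authors' annotation held that gene.

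Mx1, which encodes a dynamin-like antiviral GTPase in other strains, had no read in any pre-MI library and a few reads after MI. Its normalized values were 5.63, 4.39 and 8.18 in day 12 Sfrp2 libraries, from 8, 7 and 20 reads, against 0 in all 3 pre-MI libraries. All day 12 Sfrp2 libraries were therefore above all pre-MI libraries, as for 51.4% of all genes. The limma log2 difference of (value + 1) was 2.79 (SE 0.336, adjusted p = 0.000383). Because pre-MI is at 0, the fold is a lower bound. In the pre-MI library with the fewest nuclear reads, 3 reads would give a value of 5.38, and the day 12 Sfrp2 mean of 6.07 was at least 1.13-fold higher than that. In the authors' deposited table the adjusted p of Mx1 was 0.0293.

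On day 1 Mx1 had normalized values of 1.61 and 2.30, from 2 reads in each library, against 0 in all pre-MI libraries. The limma log2 difference was 1.55 (SE 0.172, adjusted p = 0.00572), but the day 1 mean of 1.95 is under the value of 3 reads before MI, so no fold is given. This call was lost in the fit of all 11 libraries (limma adjusted p = 0.232), with edgeR (adjusted p = 0.193) and with DESeq2, which gave no adjusted p. Over all alternatives that gave one, the adjusted p ran between 1.52e-07 and 0.232. The day 12 vehicle libraries had 7.79, 0 and 1.87 (limma log2 difference from pre-MI 1.55, 95% interval -0.18 to 3.29, adjusted p = 0.177). Without vehicle replicate 2, which is at 0, the difference was 2.33 with a limma adjusted p of 0.0211. In that fit 35.7% of all genes were called higher, against 0% with all vehicle libraries.

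Set against exon length, Mx1 lay within the range of genes that heart cells should not use, though above their mean in day 12 Sfrp2. There it had 1.49, 1.16 and 2.16 per exon kb in replicates 1, 2 and 3, where the sensory receptor genes averaged 0.526, 0.877 and 0.869. It averaged 1.60 per exon kb over these libraries, and in none of the 11 c-Kit(+) libraries was it above the 95th percentile that the sensory receptor genes set. That percentile was 1.60, 2.48 and 2.28 per exon kb in day 12 Sfrp2 replicates 1, 2 and 3, and 0 to 0.0471 before MI. Ifitm2 and Ifitm3 were above that percentile in 10 of 11 libraries each, vehicle replicate 3 being the exception. Irf7 exceeded it in 5 libraries and Ifit3 in 6, and both did so in all 3 pre-MI libraries. Before MI the percentile was so low that 1 read was enough, as for Ifit3 in pre-MI replicate 1. Over the whole table, 3.91% of the 7426 genes that rose in day 12 Sfrp2 were above it in every day 12 Sfrp2 library.

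**Figure D3:**
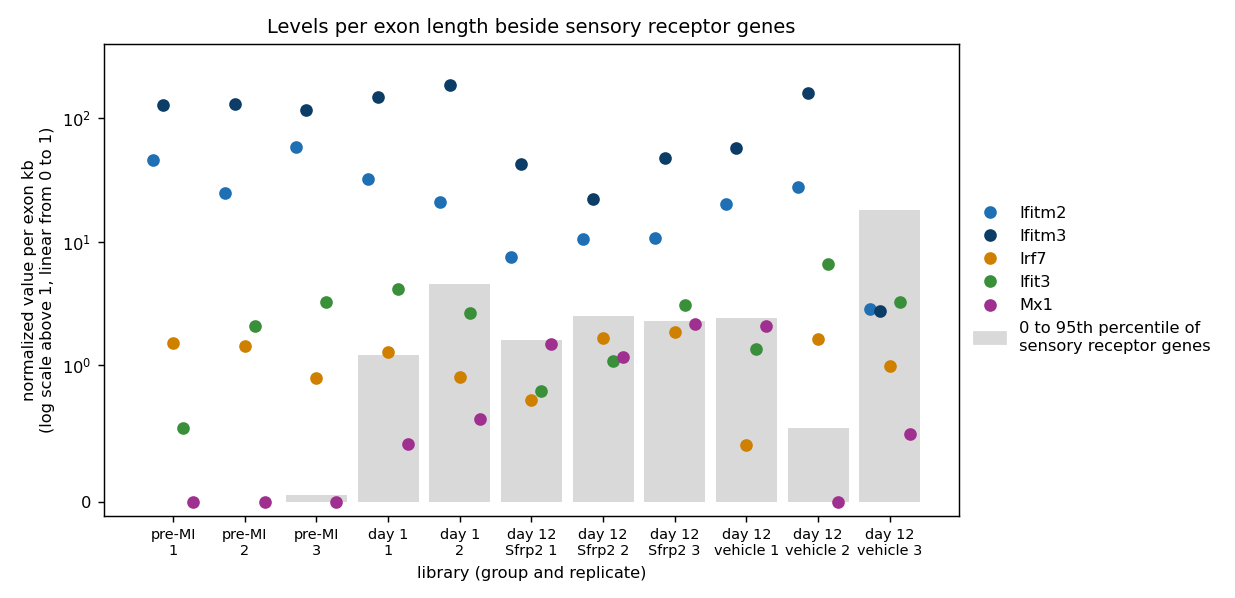
Normalized value per exon kb of each gene in the 11 c-Kit(+) libraries (log axis above 1, linear from 0 to 1), with bars from 0 to the 95th percentile of 96 sensory receptor genes with a known exon length. Ifitm2 and Ifitm3 stand above the bar in every library but day 12 vehicle 3, and Mx1 above it in none.

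Irf7 and Ifit3 had few reads throughout, and neither passed the threshold in any of the 5 comparisons. Irf7, the transcription factor that amplifies interferon production, had normalized values of 2.82, 6.28 and 6.95 in day 12 Sfrp2, against 5.68, 5.38 and 3.41 in pre-MI libraries. The groups overlap, and the limma log2 difference was 0.08 (95% interval -0.89 to 1.05, adjusted p = 0.885). Its day 1 values were 4.84 and 3.44, within the pre-MI range (log2 difference -0.17, 95% interval -1.23 to 0.89). In day 12 vehicle they were 1.56, 6.09 and 3.74 (log2 difference from pre-MI -0.38, 95% interval -1.95 to 1.20). Each value rests on 2 to 17 reads.

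Ifit3, of a family of proteins that act against viral RNA, had normalized values of 1.41, 1.88 and 5.31 in day 12 Sfrp2, against 0.946, 3.59 and 5.68 in pre-MI libraries. The groups overlap and the limma log2 difference was -0.15 (95% interval -1.48 to 1.18, adjusted p = 0.84). Day 1 values were 7.26 and 4.59 (log2 difference from pre-MI 0.80, 95% interval -0.93 to 2.53), and day 12 vehicle values were 2.34, 11.6 and 5.61 (log2 difference from pre-MI 0.74, 95% interval -1.03 to 2.51). Ifit3 shares 51.2% of its 50-base windows with the neighbouring copy Ifit3b, which is not analysed here. Only reads that mapped to 1 place were kept by the authors, so the Ifit3 values are uncertain.

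The members did not move as a group over the 11 c-Kit(+) libraries. On the log2(value + 1) scale Pearson's r between Ifitm2 and Ifitm3 was 0.86, while Irf7 and Ifit3 had r between 0.07 and 0.22 with each other and with the Ifitm pair, and Mx1 had r between -0.61 and -0.27 with the other 4. Over the 1586 genes averaging at least 20, the pattern of Ifitm3 was most like that of Ramp2 (r = 0.97), a receptor activity-modifying protein for adrenomedullin, and Rab1 (r = 0.97), a GTPase of the secretory pathway. That of Ifitm2 was most like Dab2ip and Shroom4 (r = 0.95 each). The closest genes were Zeb2 (r = 0.81) and Bhlhe40 (r = 0.79) for Ifit3, Fstl1 (r = 0.63) and Pbrm1 (r = 0.59) for Irf7, and Arid1b (r = 0.92) and Neb (r = 0.91) for Mx1. These values describe 11 libraries that share groups, depth and background, and carry no p.

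The wider interferon response was read from 64 other interferon-induced genes, of which 60 were measured. In day 12 Sfrp2 relative to pre-MI, 10 of the 60 fell and 9 rose, against 8.82% and 48.8% of all genes. The list's median log2 difference was 0.14, against 1.27 over all genes, and for its 26 members with a mean of at least 10 it was -0.53, against -0.49 over all such genes. Scaling to nuclear protein-coding genes gave 14 that fell and 7 that rose, with a list median of -0.30. On day 1, 3 of the 60 fell and 4 rose, against 2.65% and 21.3% of all genes, and in day 12 vehicle none passed the threshold, as for all genes.

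Among the genes that fell, those with the smallest p had high levels before MI. Rsad2, which encodes viperin, had normalized values of 16.2, 12.6 and 16.8 in day 12 Sfrp2, against 89.9, 80.7 and 94.3 in pre-MI libraries (limma log2 difference -2.47, SE 0.255, adjusted p = 0.00037). It also fell on day 1, with 27.4 and 24.1 against the same pre-MI values (limma log2 difference -1.74, SE 0.165, adjusted p = 0.00572), a call that held in 13 of 15 alternatives. Slfn5, a Schlafen family member, had 25.4, 13.2 and 18.4 in day 12 Sfrp2, against 108, 147 and 124 in pre-MI libraries (limma log2 difference -2.71, adjusted p = 0.00037). Its day 1 values were 56.5 and 28.7 (limma log2 difference from pre-MI -1.61, adjusted p = 0.0295), a call lost in 8 of 15 alternatives. Ifi203, of the family of DNA-binding interferon-inducible proteins, had 14.8, 14.4 and 24.5 in day 12 Sfrp2, against 97.5, 86.0 and 62.5 in pre-MI libraries (limma log2 difference -2.15, adjusted p = 0.000706). In all 3 genes every day 12 Sfrp2 library was below every pre-MI library, as for 11.5% of all genes. The 3 genes were picked by their small p, so the lack of overlap adds no support. The day 12 Sfrp2 calls of Rsad2, Slfn5 and Ifi203 held in all 16 alternatives.

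The genes that rose with the smallest p had at most 1 read in each pre-MI library. Nlrc5, a regulator of MHC class I genes, had 9.16, 11.9 and 12.3 in day 12 Sfrp2, against 0.946, 0 and 0 in pre-MI libraries (limma log2 difference 3.27, adjusted p = 0.00042). Slfn8, another Schlafen gene, had 3.77 to 8.18 in day 12 Sfrp2, against 0 in all pre-MI libraries (limma adjusted p = 0.000452). Ms4a4c had 2.11 to 3.14 in day 12 Sfrp2, against 0 in all pre-MI libraries (limma adjusted p = 0.000475). Of the 9 genes that rose, 1 was above the sensory receptor percentile in every day 12 Sfrp2 library. That gene, Oas3, which makes the 2-5A messenger of an antiviral RNase, is singled out after its values were seen. It had 18.3, 32.6 and 16.4 in day 12 Sfrp2, against 8.52, 1.79 and 5.68 in pre-MI libraries (limma log2 difference 2.00, SE 0.506, adjusted p = 0.00958), a call that was lost without day 12 Sfrp2 replicate 2.

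**Figure D4:**
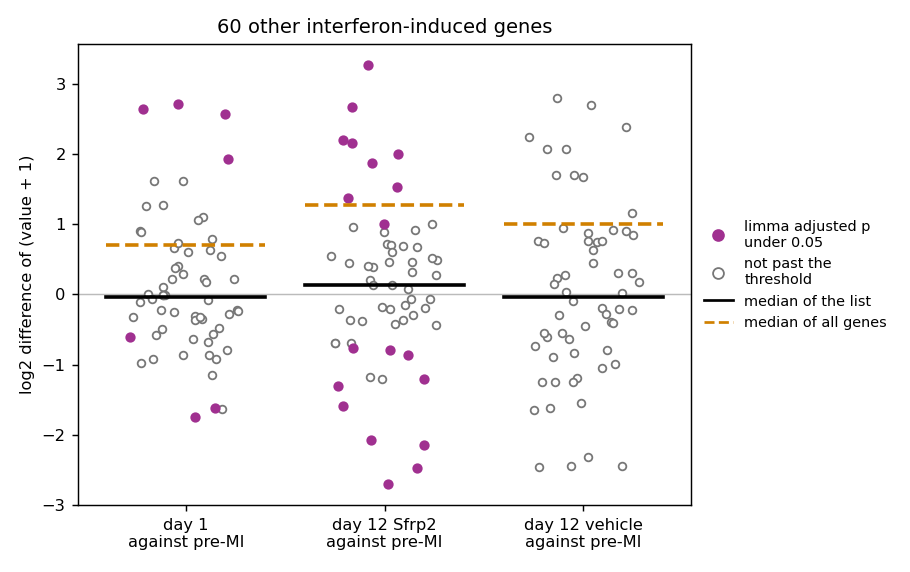
Limma log2 difference of (value + 1) from pre-MI for 60 other interferon-induced genes on day 1, in day 12 Sfrp2 and in day 12 vehicle, filled where the adjusted p is under 0.05, with the median of the list (solid) and of all genes (dashed). In day 12 Sfrp2 the list's median is 0.14 and that of all genes 1.27, and the genes past the threshold lie on both sides of 0.

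Upstream of these genes, none of the 14 interferon ligand genes listed is analysed here. Of 6 receptor genes, in day 12 Sfrp2 relative to pre-MI, 1 fell and 1 rose, where over all genes 8.82% fell and 48.8% rose. Ifngr2, a chain of the receptor for interferon gamma, had 10.6, 3.77 and 8.99 in day 12 Sfrp2, against 20.8, 17.9 and 19.3 in pre-MI libraries (limma log2 difference -1.31, adjusted p = 0.0198), a call that held in 12 of 16 alternatives. Ifnlr1, of the receptor for lambda interferons, rose, with 2, 12 and 16 reads in day 12 Sfrp2, against 0, 0 and 1 in pre-MI libraries (limma adjusted p = 0.0134), which held in 13 of 15. Ifnar1, of the type I receptor, did not pass the threshold (log2 difference 0.46, 95% interval -1.27 to 2.20). Of 6 signal transduction genes only the kinase Tyk2 passed it, with 7.75, 10.0 and 4.91 in day 12 Sfrp2, against 2.84, 1.79 and 2.27 in pre-MI libraries (limma adjusted p = 0.0183), a call that held in 10 of 15 alternatives.

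Of 8 other interferon regulatory factors, 4 rose and 1 fell in day 12 Sfrp2 relative to pre-MI, and 2 rose on day 1. These shares and those of the lists that follow stand beside the 48.8% of all genes that rose and 8.82% that fell in day 12 Sfrp2, and the 21.3% that rose on day 1. Irf8, a factor of the myeloid lineage, had 10.6, 17.0 and 13.5 in day 12 Sfrp2, against 0 in all pre-MI libraries (limma log2 difference 3.85, adjusted p = 0.00037). It had 10.5 and 4.59 on day 1 (limma adjusted p = 0.0096 against pre-MI). That day 1 call of Irf8 held in 13 of 14 alternatives, and that of Irf5, the other factor that rose on day 1, in 4 of 14. Irf2, which competes at the ISRE, fell in day 12 Sfrp2, with 6.34, 4.39 and 11.4, against 13.3, 23.3 and 20.5 in pre-MI libraries (limma log2 difference -1.30, adjusted p = 0.0231), which held in 11 of 16 alternatives. Of 18 listed sensors and adaptors, 9 rose and 1, Tlr3, fell in day 12 Sfrp2 relative to pre-MI, and 5 rose on day 1. In day 12 Sfrp2 the call of Tlr3 held in 7 of 16 alternatives and the rise of Tlr4 in 5 of 15. The other calls of a rise there held in 11 to 15 of 15. The 5 day 1 calls held in 4 to 10 of 14 alternatives, and Tlr9 rests on 1 read in each day 1 library. Of 5 measured negative regulators 2, the phosphatases Ptpn6 and Ptpn2, rose in day 12 Sfrp2 and none on day 1. Those calls held in 14 of 15 alternatives for Ptpn6 and in 10 of 15 for Ptpn2. Ifitm7 and Ifitm10, the measured relatives of Ifitm2 and Ifitm3, both rose in day 12 Sfrp2 (limma adjusted p = 0.000413 and 0.00285) and had at most 1 read in each pre-MI library. Of all genes of these upstream lists that rose in day 12 Sfrp2, only Ptpn2 was above the sensory receptor percentile in every day 12 Sfrp2 library.

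Markers of other cell types moved with these groups. The summed value of 12 endothelial markers was 946, 352 and 850 in day 12 Sfrp2 replicates 1, 2 and 3, against 3966 to 4129 in pre-MI libraries, and all 12 markers fell, where 8.82% of all genes fell. On day 1 the sum was 1760 and 1204 and 9 of 12 fell, where 2.65% of all genes fell, while Ifitm3 was at 102 and 126. Among vehicle libraries the sum was 758, 1600 and 185 in replicates 1, 2 and 3, in the same order as Ifitm3 and Ifitm2. Marker sums of cardiomyocytes, fibroblasts, mesothelial cells, erythroid cells, plasmacytoid dendritic cells, and monocytes and macrophages shared that order. Those of neutrophils, lymphocytes and mast cells did not. Of the plasmacytoid dendritic cell markers, Tcf4 and Cox6a2 had that order, and Tcf4 made up most of the sum. The other markers of that list, Siglech, Ccr9, Klk1 and Pacsin1, did not have it. Siglech was at 11.7, 0 and 7.48 in vehicle replicates 1, 2 and 3. Within day 12 Sfrp2, replicate 2 was lowest in the endothelial sum and in Ifitm3. Ifitm2 was lowest, at 4.93, in replicate 1, which had the highest endothelial sum. The Ifitm2 values rest on 7, 11 and 17 reads in day 12 Sfrp2 replicates 1, 2 and 3, too few to rank these libraries. No endothelial marker was at 0 in pre-MI or day 1 libraries.

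The summed value of 15 monocyte and macrophage markers was 186 to 270 in day 12 Sfrp2, against 19.3 to 32.2 in pre-MI libraries, where 6 or 7 markers were at 0, and 13 of 15 rose, where 48.8% of all genes rose. On day 1 it was 313 and 480 and 12 of 15 rose, where 21.3% of all genes rose. Of these markers, 6 of the 13 that rose in day 12 Sfrp2 and 6 of the 12 that rose on day 1 were above the sensory receptor percentile in every library of that group. Vehicle replicate 2 had the highest sum, 1370, against 192 and 180 in replicates 1 and 3. It was also the vehicle library with the highest Ifitm3, Ifit3, Irf7 and Ifitm2, and the one where Mx1 was at 0. Between replicates 1 and 3 the sums were close and the markers were split in direction. Lyz2 was at 52.2 and 1.87 there, but Itgam was at 31.15 and 52.35 and Ccr2 at 1.56 and 39.3. The sum of 10 cardiomyocyte markers was 376 to 582 in day 12 Sfrp2, against 2559 to 4421 in pre-MI libraries, and 9 of 10 fell. The part of these markers, of mitochondrial reads and of the background of sensory receptor genes in the differences of Ifitm2, Ifitm3 and Mx1 was not tested.

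**Figure D5:**
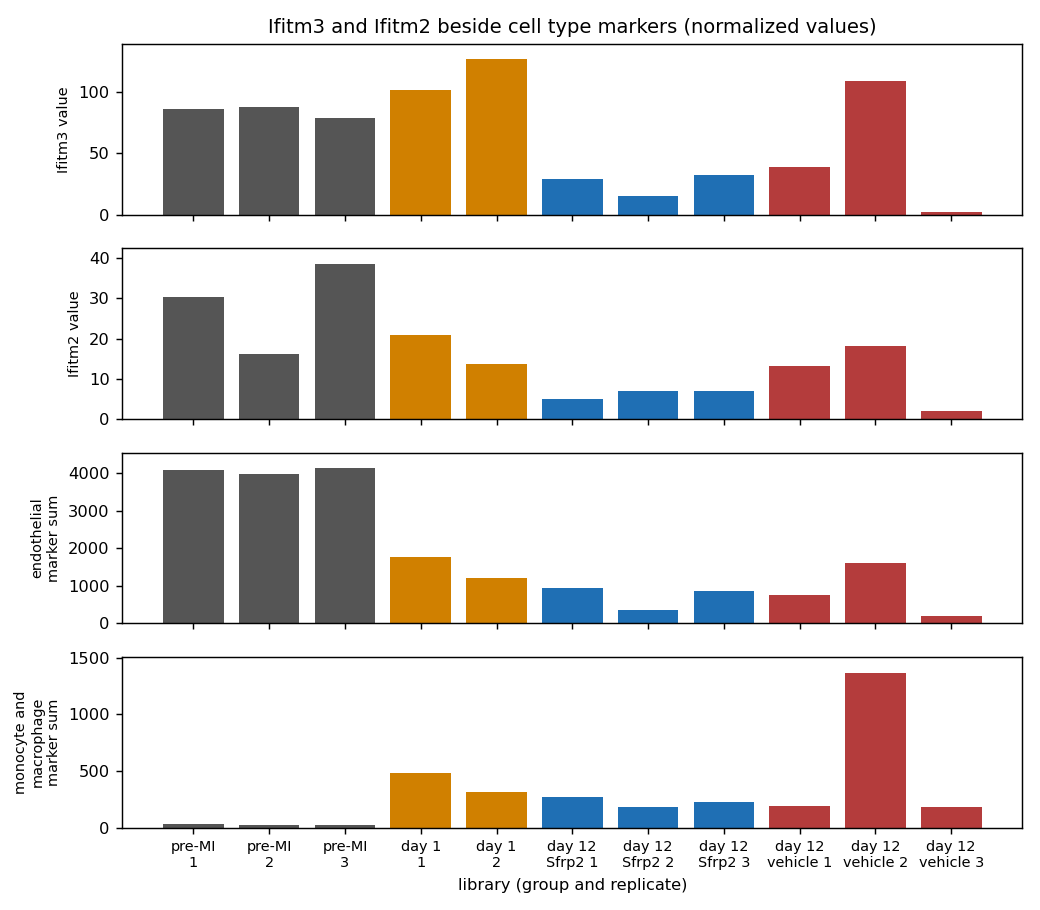
Normalized values of Ifitm3 and Ifitm2 above the summed normalized values of 12 endothelial and of 15 monocyte and macrophage markers in the 11 c-Kit(+) libraries, as bars from 0 coloured by group. Ifitm3 is at 102 and 126 on day 1, where the endothelial sums are 1760 and 1204. Both marker sums, Ifitm3 and Ifitm2 share their order among the day 12 vehicle libraries, an order that most other marker sums also had. The monocyte and macrophage sums of vehicle replicates 1 and 3 are close, at 192 and 180.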

How the data were processed

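RNA was amplified as cDNA from small samples, and per the labels' protocols Trim Galore with Cutadapt trimmed the reads (20 nt or longer kept), STAR aligned them to GRCm38, reads mapped to a single place were counted with HTSeq, and genes reaching 10 reads in some library were normalized with DESeq2. Strandedness and tool versions were not stated. In all, 10 tables of 15223 genes were deposited with normalized values, a signal of gene counts divided by size factors per the file headers and values, beside the authors' own log2 fold changes, p-values and a score that is their test statistic. Values of a library were identical across tables.

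Dividing by each library's smallest step recovered whole reads for 100% of values (tolerance 0.001). Since the tables hold no raw counts, the main test was limma 3.58.1 (eBayes with trend) on log2(value + 1) of both compared groups only, 2-sided, with p adjusted by Benjamini-Hochberg across all 15223 genes and called under 0.05. Such log2 differences understate changes of low genes. Called genes are those past the threshold.

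Levels per exon kb used GENCODE M21 exon lengths (GRCm38). Sensory receptor genes are those named Olfr, Vmn1r, Vmn2r, Tas1r or Tas2r. Alternatives were other pseudocounts (0.5 and 5), a mean of at least 10, a fit of all 11 libraries, scaling to nuclear coding genes or by TMM, library weights, edgeR 4.0.16 and DESeq2 1.42.0 on the recovered reads, a replicate block and leaving out each library. edgeR called 8478 and DESeq2 6497 genes between day 12 Sfrp2 and pre-MI, against 8768 with limma. The limma step was tested on simulated data. The 6 genes are always named. From each other list up to 6 genes a comparison with the smallest limma p may be named, and for each of the 6 the 2 genes with the highest Pearson r. Members and lists were chosen with earlier results of these data known. The marker Adgre1 was read under its older symbol Emr1.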

Additional observations from a re-analysis of the deposited data

Results flagged for a closer look

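Ifitm3 was above every pre-MI library in both day 1 libraries and below every pre-MI library in all day 12 Sfrp2 libraries. The mean log2(value + 1) on day 1 exceeded that of day 12 Sfrp2 by 2.18. This difference between the time points was not tested, and both sides share the pre-MI libraries. Of all genes, 39.6% were higher in both day 1 libraries and 11.5% lower in all day 12 Sfrp2 libraries than in every pre-MI library. The day 1 side depends on the scaling: per 1000000 nuclear coding reads, Ifitm3 had 437.8 and 567.9 reads on day 1, against 423 to 551.1 in pre-MI libraries, so that these groups overlapped.

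Irf7 had a normalized value of 15.5 in the single cardiomyocyte library, from 7 reads, above its value in each of the 11 c-Kit(+) libraries, where it ranged up to 6.95. Per exon length it was 4.11, below the sensory receptor genes' 95th percentile of 14.4 in that library, and the other 4 genes were at 0 there. The library has no replicate and 190259 reads. Its summed value of 10 cardiomyocyte markers was 264, against 2559 to 4421 in pre-MI libraries and 290 in the lowest c-Kit(+) library, day 12 vehicle replicate 3. The cell type of this library therefore rests on its label, which its markers do not bear out.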

How the results depend on the processing

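Apart from the fits that leave out a library, 208 of 234 values kept their direction and side of the threshold (or, for counts, stayed within 1.5 times), and in the leave-one-out fits 122 of 140 did; the causes of the changes below were not tested. With day 12 Sfrp2 against pre-MI, 3 genes were called in every leave-one-out fit, and without 1 library Ifitm3 ranged from -1.96 to -1.43, Ifitm2 from -2.29 to -1.69 and Mx1 from 2.58 to 2.96. The single day 1 call, Mx1, became 0 calls with a mean of at least 10 (which leaves Mx1 out), with all 11 libraries, edgeR, DESeq2 and the replicate block, where its adjusted p was 0.105. Weights per library gave 1 call (Mx1) in vehicle against pre-MI, 2 (Ifitm2, Irf7) in Sfrp2 against vehicle and 1 (Ifitm3) in vehicle against day 1. Leaving out 1 library gave 0 to 1 calls in vehicle against pre-MI and 0 in both other vehicle comparisons.

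Reversals concerned values that did not pass the threshold in the tests of the report. With Sfrp2 against pre-MI, Irf7 was -0.37 with nuclear scaling, -0.0028 with TMM and -0.15 with edgeR, and Ifit3 was 0.72 with weights. With Sfrp2 against vehicle, Ifitm3 was -0.15 with a pseudocount of 5, -0.35 with weights, -1.25 with edgeR and -1.44 with DESeq2, and Ifit3 was 0.61 with weights. With vehicle against day 1, Ifit3 was 0.0055 with a pseudocount of 5, 0.02 with edgeR and 0.17 with DESeq2, and Mx1 was 0.13, 0.38 and 0.45 in the same fits, 1.47 with weights and 0.015 with the replicate block. Leave-one-out ranges that cross 0 were -0.37 to 0.028 for Irf7 on day 1, -0.72 to 0.018 for Irf7 in vehicle, -0.12 to 0.41 for Irf7 and -0.65 to 0.24 for Ifit3 in Sfrp2, all against pre-MI. They were -1.20 to 0.17 for Ifitm2 and -1.40 to 1.23 for Ifitm3 in Sfrp2 against vehicle, and -0.55 to 0.19 for Irf7, -0.53 to 0.42 for Ifit3 and -0.79 to 0.78 for Mx1 in vehicle against day 1.

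Over all genes, day 1 against pre-MI had 3638 calls, against 592 with a mean of at least 10, 895 with 11 libraries, 873 with DESeq2, 10 with the replicate block and 1996 to 3580 without 1 library. Vehicle against pre-MI had 0 calls, against 4245 with 11 libraries, 82 with TMM, 8282 with weights, 1907 with edgeR, 861 with DESeq2, 1501 with the block and 6421 without vehicle replicate 2. Sfrp2 against pre-MI had 8768 calls and 1673 with a mean of at least 10, where 27.7% were higher. Sfrp2 against vehicle had 0 calls and 2185 with weights, and vehicle against day 1 had 0, against 2250 with weights, 1 with DESeq2, 2 with the block and up to 1 without 1 library. Deviations of same-numbered libraries from their group means had correlations of -0.631 to 0.024. With 2 or 3 libraries in a group, such correlations cannot exclude that libraries of the same number were processed together. With a mean of at least 10, Irf7, Ifit3 and Mx1 were not fitted. The few reads of these 3 genes limit what could be detected.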
